A study of Mus musculus with 6 samples.

Results

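YAP and TAZ, the transcriptional coactivators that end the Hippo pathway, are commonly read out through a small set of target genes. The 9 genes described here, *Ccn1*, *Ccn2*, *Ankrd1*, *Amotl1*, *Amotl2*, *Ajuba*, *Crim1*, *Axl* and *Nuak2*, were taken by name as canonical YAP/TAZ targets. The rule itself uses no measured value, but the choice was made with earlier results of these data known. They are 9 of the 55401 genes in the count files, and 8 of them were among the 16807 genes with enough counts to be tested. *Ankrd1* was the one that did not pass.

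Bulk RNA-seq of subcutaneous white adipose tissue (scWAT) was compared between 3 YT-FF and 3 YT-AKO libraries, all from male mice 8 weeks old. YT-FF mice carried floxed *Yap* and *Taz* alleles (*Yap fl/fl*;*Taz fl/fl*) and no Cre, although the sample labels call this group WT. YT-AKO mice carried the same floxed alleles and an *Adipoq* Cre transgene, which recombines the alleles in mature adipocytes, so other cells of the tissue were not targeted in either group. The floxed lines were C57BL/6–129 and the Cre line C57BL/6. The methods give 3 mice per group, whereas the labels do not say whether each library came from 1 mouse, so the p-values cover the spread between these libraries only.

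When Hippo signaling is low, YAP and TAZ enter the nucleus, bind TEAD transcription factors and switch on genes of growth, adhesion and matrix. Some of these genes act back on the pathway: the angiomotins AMOTL1 and AMOTL2 hold YAP and TAZ outside the nucleus, and the LIM scaffold AJUBA binds the LATS kinases that phosphorylate them. In adipose tissue YAP and TAZ are known for restraining adipocyte differentiation and for responding to the stiffness of the matrix.

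TEAD factors bind a short core, GGAATG on one strand and CATTCC on the other, and the sequences before the transcription start are shown to place it in these genes. RefSeq promoters (GRCm38.p6, the build of mm10) were at hand for 7 of the 9 genes, all but *Ccn2* and *Nuak2*. In the 250 bases before the start, 6 of the 7 held the core on either strand, against 4153 of 32851 promoters of all genes (12.6%). Counted by gene, the share was 13.0% of the tested genes, 12.1% of the genes called lower in YT-AKO and 13.4% of those called higher. Of the other genes of a widely used YAP/TAZ target signature, 10 had a promoter at hand, and 1 of these, *Ptpn14*, held the core. The high share among the 7 was therefore not seen in that list of targets. The 9 genes were chosen as known targets, so their high share is no independent finding, and a match is only a run of letters. The AP-1 motif TGACTCA, read as TGAGTCA from the other strand, does not overlap the core and was in none of the 7 windows and in 4.46% of all promoters. The 8 matches are shown 5′ to 3′ on the gene's strand with 10 bases on each side and the core in capitals.
*Ccn1*, chr3:145650073-145650098, minus strand: cgccaaccaaCATTCCtgagatgttt
*Amotl2*, chr9:102717729-102717754, plus strand: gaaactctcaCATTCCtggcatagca
*Ajuba*, chr14:54577832-54577857, minus strand: ttgatggataCATTCCacagtgcccc
*Ajuba*, chr14:54577810-54577835, minus strand: cccctccgcgCATTCCaactgtaaac
*Crim1*, chr17:78200159-78200184, plus strand: ggcgggggggGGAATGaggtaggatg
*Axl*, chr7:25788951-25788976, minus strand: aaattctacaGGAATGtttaccagac
*Ankrd1*, chr19:36120039-36120064, minus strand: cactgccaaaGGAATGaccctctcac
*Ankrd1*, chr19:36119952-36119977, minus strand: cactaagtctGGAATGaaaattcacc

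The distance from the first base of the core to the start ran from 65 bases in *Amotl2* to 233 bases in *Axl*. *Ajuba* held 2 cores, 186 and 164 bases before its start, and *Ankrd1* held 2, 210 and 123 bases before it. The core lay 103 bases before the start of *Ccn1* and 79 bases before that of *Crim1*. The matches of *Amotl2* and *Ankrd1* fell inside an annotated exon of the same gene, which has other starts further upstream. *Amotl1* had no match in its window, which says only that these letters were not in it. The whole windows of *Ccn1*, a widely used readout, and *Crim1*, which was lower in YT-AKO, show what surrounds a single core on either strand.
*Ccn1*, chr3:145649986-145650235, minus strand: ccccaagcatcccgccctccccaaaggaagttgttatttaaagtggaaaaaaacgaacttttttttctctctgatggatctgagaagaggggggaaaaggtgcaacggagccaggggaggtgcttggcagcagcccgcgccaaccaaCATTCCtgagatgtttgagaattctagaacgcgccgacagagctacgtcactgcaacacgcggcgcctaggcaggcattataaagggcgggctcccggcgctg
*Crim1*, chr17:78199998-78200247, plus strand: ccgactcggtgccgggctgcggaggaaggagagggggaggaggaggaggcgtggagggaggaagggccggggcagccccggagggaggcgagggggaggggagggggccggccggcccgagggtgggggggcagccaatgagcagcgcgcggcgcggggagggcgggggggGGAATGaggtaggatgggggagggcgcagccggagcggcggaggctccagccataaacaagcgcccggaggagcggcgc

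**Figure D1:**
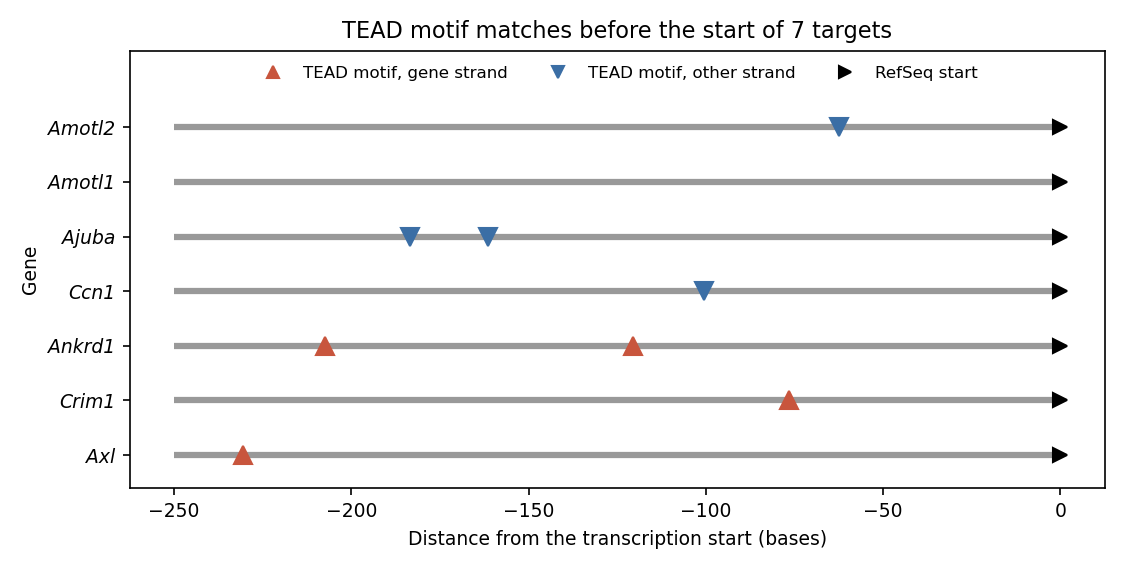
Position of the TEAD core in the 250 bases before the RefSeq start of 7 targets, with distance from the start in bases on the x axis, 1 gene per line and triangles for the strand of the match. *Ajuba* and *Ankrd1* hold 2 cores each, *Amotl1* none and the other 4 genes 1 each.

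The libraries held 17740987 to 21838493 counted fragments. Values are CPM, the counts relative to the library's total, scaled by TMM factors, which correct for differences in library composition and ran from 0.777 to 1.16. The lowest factor was that of YT-AKO 2, which also stood furthest from its group: the chi-square per degree of freedom between replicates was 182 and 165 for its pairs and 13.4 to 37.0 for the others. Differences are log2 fold changes of YT-AKO against YT-FF from edgeR's quasi-likelihood test, and a gene was called at a Benjamini-Hochberg adjusted p under 0.05 over all tested genes. With library totals alone in place of TMM, the median of all tested genes moved from -0.02 to -0.34, so directions are given relative to the TMM scale.

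The targeted genes were examined first. *Yap1*, which encodes YAP, was 69.1, 57.1 and 66.7 CPM in YT-FF 1, 2 and 3 and 37.7, 29.0 and 31.3 CPM in the libraries labelled YT-AKO, a log2 fold change of -0.98 (adjusted p = 0.0179, edgeR). *Wwtr1*, which encodes TAZ, was 77.5, 76.0 and 98.8 CPM in YT-FF and 175, 133 and 161 CPM in the libraries labelled YT-AKO (log2 fold change 0.89, adjusted p = 0.0220, edgeR). *Yap1* fell and *Wwtr1* rose, with no overlap between the groups in either gene. The rise of *Wwtr1* is in a gene that the labelled genotype targets, and a count over the whole gene cannot contradict that label. The log2 fold change of *Wwtr1* was 0.59 with library totals alone (adjusted p = 0.0798), 1.01 with an offset for gene length (adjusted p = 0.0195) and 1.0 without YT-AKO 2 (adjusted p = 0.00331, all edgeR). *Yap1*, a long gene at 9257 bp, was -0.58 with that offset (adjusted p = 0.0450) and -0.90 without YT-AKO 2 (adjusted p = 0.00419, both edgeR). A count over the whole gene does not show whether the floxed exons were missing and protein was not measured in these files, so "labelled YT-AKO" is meant wherever YT-AKO is written here. None of the 4 TEAD genes was called: *Tead1* had a log2 fold change of 0.14, *Tead2* of -0.08, *Tead3* of 0.06 and *Tead4* of -0.45. With the offset for gene length, *Tead1* was called higher (0.66, edgeR adjusted p = 0.0414). *Vgll4*, a corepressor that competes for TEAD, had one of -0.88 (adjusted p = 0.202, edgeR). It was 8.02 CPM in YT-AKO 2 against 30.2 and 39.7 CPM in YT-AKO 1 and 3, and without YT-AKO 2 it was called lower at -0.45 (adjusted p = 0.0413, edgeR).

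Of the 8 tested targets, *Amotl2*, *Amotl1* and *Crim1* were lower in YT-AKO, none was higher and 5 were not called. These 3 are 3 of 8, where 9.01% of all tested genes were called lower and 12.6% higher. In 4 of the 8, these 3 and *Nuak2*, every YT-AKO library was below every YT-FF library, which held for 25.8% of all tested genes (25.7% in the other direction). Fold changes were below 0 on the log2 scale in 7 of the 8, against 51.0% of all tested genes, and its median over the 8 was -0.55 against -0.02 over all genes. At the stricter threshold that the study set for its enrichment of upregulated genes, an adjusted p under 0.01 with a log2 fold change beyond 1, edgeR and limma-voom called 0 targets and DESeq2 called *Amotl2* alone. At that threshold edgeR called 0.0357% of tested genes lower and 0.0892% higher, and DESeq2 3.92% and 7.97%. At an unadjusted p under 0.05, edgeR had 4 targets lower and 0 higher, against 18.6% and 22.2% of all tested genes. In bulk tissue, fewer cells of a type and less RNA per cell cannot be told apart.

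**Figure D2:**
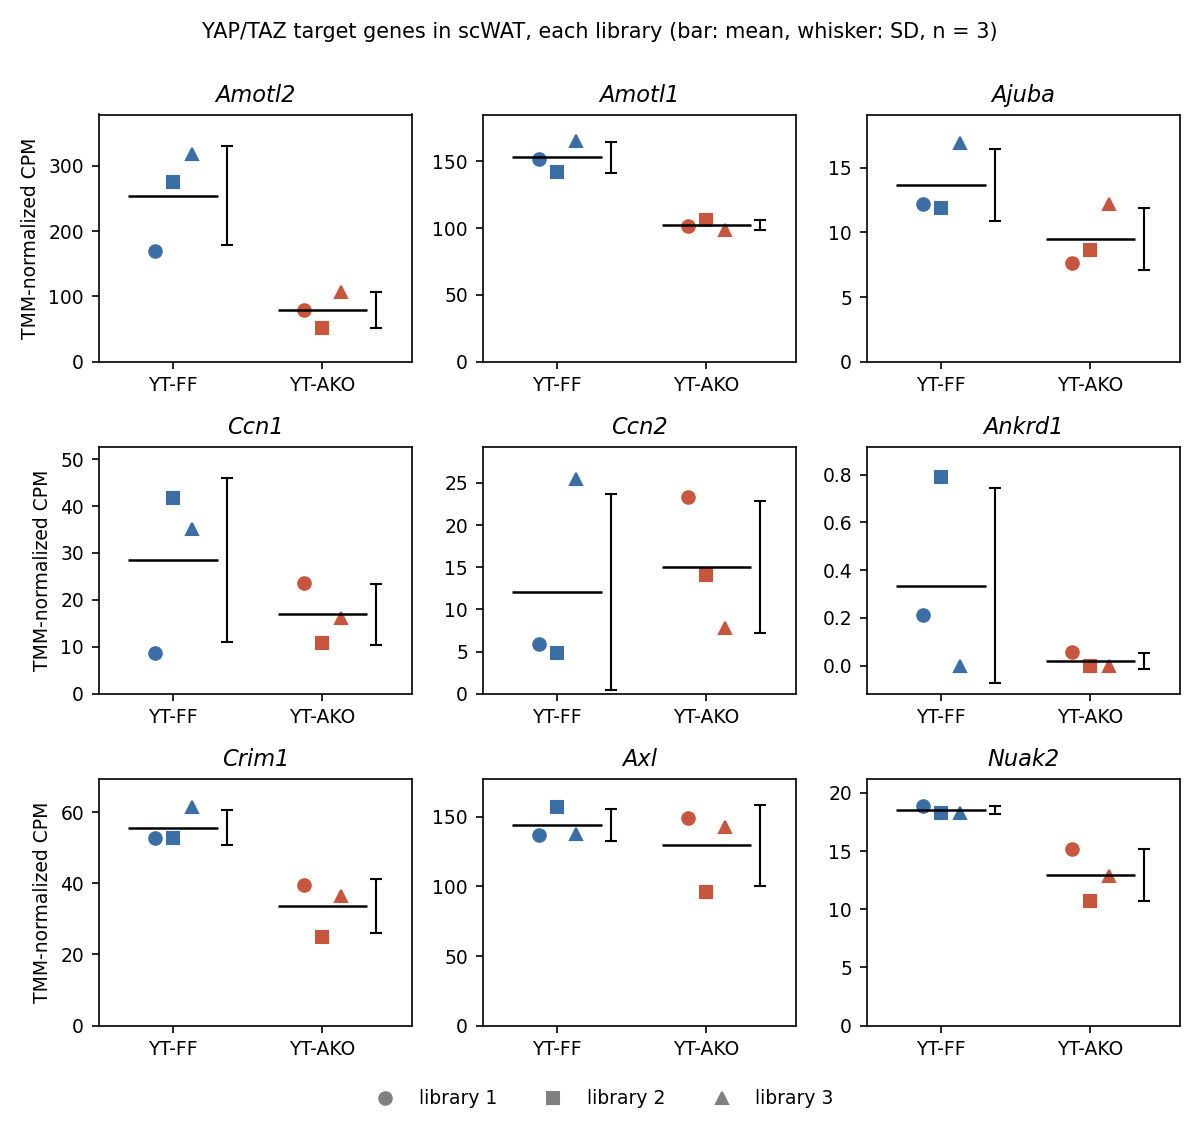
TMM-normalized CPM (y axis, a separate scale in each panel) of the 9 targets in the 3 YT-FF (blue) and 3 YT-AKO (red) libraries, with the symbol for the library number, the line for the mean and the whisker for the SD. The groups do not overlap for *Amotl2*, *Amotl1*, *Crim1* and *Nuak2*, while *Ccn1* and *Ccn2* spread as widely within a group as between groups.

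*Amotl2* and *Amotl1* encode angiomotin-like scaffolds of cell junctions and are targets that also bind YAP. *Amotl2* (ENSMUSG00000032531, mm10 chr9:102716672-102733418, plus strand) was 170, 275 and 318 CPM in YT-FF 1, 2 and 3 and 79.0, 51.1 and 107 CPM in YT-AKO 1, 2 and 3. All 3 YT-AKO libraries were below the lowest YT-FF library, and the lowest of the 6 was YT-AKO 2. The means were 254 ± 75.7 and 79.2 ± 28.1 CPM (SD, n = 3), and *Amotl2* was 3.21-fold lower in YT-AKO (log2 fold change -1.68, SE 0.328, edgeR adjusted p = 0.0205). Without YT-AKO 2, where 14.0% of tested genes were called lower, it was -1.45 (adjusted p = 0.00674, edgeR). Without YT-FF 1, 2 or 3 the call was lost at log2 fold changes of -1.91, -1.63 and -1.49 (edgeR adjusted p = 0.110, 0.112 and 0.0558). Over all tested genes, 0 of 17183, 2 of 17140 and 528 of 17458 were called lower in these fits, so the losses were not particular to *Amotl2*.

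*Amotl1* (ENSMUSG00000013076, chr9:14541966-14645056, minus strand) was 152, 142 and 165 CPM in YT-FF and 102, 106 and 98.6 CPM in YT-AKO. The libraries of each group lay close together, and a wide gap separated the groups. The means were 153 ± 11.4 and 102 ± 3.47 CPM (SD, n = 3), a 1.50-fold difference (log2 fold change -0.58, SE 0.144, edgeR adjusted p = 0.0312). The SD of log2 CPM within groups was 0.0830, at the 2.47th percentile of all tested genes, against 0.502 for *Amotl2* and a median of 0.297. The call of *Amotl1* held without YT-AKO 2 (-0.61, edgeR adjusted p = 0.00891) and was lost without any other library. The adjusted p was 0.132, 0.125 and 0.0808 without YT-FF 1, 2 and 3 and 0.0578 and 0.0737 without YT-AKO 1 and 3 (edgeR). Over all genes, 0, 2 and 528 were called lower without YT-FF 1, 2 and 3, and 1444 and 895 without YT-AKO 1 and 3.

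*Ajuba* (ENSMUSG00000022178, chr14:54567472-54577558, minus strand), the LIM scaffold, was 12.2, 11.9 and 16.9 CPM in YT-FF and 7.62, 8.67 and 12.2 CPM in YT-AKO. The groups overlapped through YT-AKO 3, which reached the level of YT-FF 1. The means were 13.7 ± 2.79 and 9.51 ± 2.42 CPM (SD, n = 3), with a log2 fold change of -0.52 (SE 0.255) that was not called (edgeR adjusted p = 0.160). Its log2 fold change stayed below 0 in all 17 alternatives run, from -0.83 to -0.34, without a call.

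*Ccn1* and *Ccn2*, also known as *Cyr61* and *Ctgf*, encode secreted matricellular proteins that bind integrins and growth factors. *Ccn1* (ENSMUSG00000028195, chr3:145646976-145649981, minus strand) was 8.61, 41.7 and 35.2 CPM in YT-FF and 23.7, 10.9 and 16.1 CPM in YT-AKO. YT-FF 1 held the lowest level of the 6 libraries and YT-FF 2 and 3 the highest, so the groups overlapped fully. The log2 fold change was -0.75 (SE 0.541) and was not called (edgeR adjusted p = 0.321). Without YT-FF 1 it was -1.19 (edgeR adjusted p = 0.119), and without YT-FF 2 it was -0.38 (edgeR adjusted p = 0.693).

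*Ccn2* (ENSMUSG00000019997, chr10:24595442-24598683, plus strand) was 5.92, 4.79 and 25.4 CPM in YT-FF and 23.3, 14.1 and 7.74 CPM in YT-AKO. Here YT-FF 3 stood far above the other YT-FF libraries and next to YT-AKO 1. The log2 fold change was 0.33 (SE 0.667, edgeR adjusted p = 0.736), and its sign hung on single libraries. It was -0.01 without YT-FF 1, -0.06 without YT-FF 2, -0.12 without YT-AKO 1 and 1.49 without YT-FF 3 (edgeR adjusted p = 0.0908 for the last). *Ccn2* shares 23.2% of its exon bases with the antisense gene *Gm15270*, and counting took no account of strand. Fragments in the shared stretch were left out as ambiguous, and *Gm15270* itself held 1 to 6 counts per library.

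These 2 genes were among the most variable within groups. Their SD of log2 CPM was 0.940 and 1.04, at the 97.9th and 98.6th percentiles of the tested genes, whereas the other 6 tested targets lay between the 2.47th and the 81.8th. *Ccn1* and *Ccn2* are also known to be induced within minutes of stimulation, as immediate early genes are. Of 16 immediate early genes, 15 were tested: *Egr3* was lower (log2 fold change -1.18), *Jun* (1.18) and *Atf3* (1.51) were higher, 12 were not called, and the median was 0.28. Over all tested genes, the shares called were 9.01% lower and 12.6% higher. The summed level of the list was 465, 610 and 546 CPM in YT-FF and 796, 486 and 523 CPM in YT-AKO, with the highest sum in YT-AKO 1. The part of these genes in the spread of *Ccn1* and *Ccn2* was not tested.

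The genes closest in pattern to *Ccn1* and *Ccn2* were sought over the 6 libraries as the smallest root mean square difference of log2 deviations from the gene's own mean. For *Ccn1* they were *Apold1* (0.365), *Aspm* (0.395) and *Gm4739* (0.422), and the closest other target was *Crim1* at 0.698. For *Ccn2* they were *Glns-ps1* (0.340), *Marc1* (0.365) and *Fam110c* (0.368), and the closest other target was *Axl* at 0.970. By the same measure *Nuak2* and *Crim1* lay 0.158 apart and *Amotl1* and *Nuak2* 0.173 apart. With 6 libraries this describes the values and nothing more.

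*Ankrd1* (ENSMUSG00000024803, chr19:36111961-36120099, minus strand) encodes an ankyrin repeat protein of muscle that is found in sarcomeres and nuclei. In YT-FF 1, 2 and 3 there were 5, 18 and 0 fragments of it and in YT-AKO 1, 0 and 0, which is 0.213, 0.791 and 0 CPM against 0.0581, 0 and 0 CPM. Only YT-FF 1 and 2 were above 3 counts, the floor used here, which corresponds to 0.128 to 0.177 CPM in these libraries and covers counting error only. A difference was not detectable at this depth, and no fold change is given.

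*Crim1*, *Axl* and *Nuak2* act at the membrane or as kinases. *Crim1* encodes a transmembrane protein with cysteine-rich repeats that binds bone morphogenetic proteins. *Crim1* (ENSMUSG00000024074, chr17:78200248-78376592, plus strand) was 52.8, 52.7 and 61.3 CPM in YT-FF and 39.4, 25.0 and 36.4 CPM in YT-AKO. All 3 YT-AKO libraries were below the YT-FF range, with YT-AKO 2 the lowest. The means were 55.6 ± 4.94 and 33.6 ± 7.60 CPM (SD, n = 3), a 1.65-fold difference (log2 fold change -0.73, SE 0.200, edgeR adjusted p = 0.0405). Without YT-AKO 2 it was -0.55 (edgeR adjusted p = 0.0128). The call was lost without YT-FF 1, 2 or 3 (-0.76, -0.77 and -0.65, edgeR adjusted p = 0.134, 0.134 and 0.112) and without YT-AKO 3 (-0.78, edgeR adjusted p = 0.0630). In these fits, in that order, 0, 2, 528 and 895 of all genes were called lower.

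*Nuak2* (ENSMUSG00000009772, chr1:132316126-132333488, plus strand), a kinase related to AMPK that acts on actomyosin, was 18.9, 18.3 and 18.3 CPM in YT-FF and 15.2, 10.7 and 12.9 CPM in YT-AKO. The YT-FF libraries were nearly equal and all 3 YT-AKO libraries were below them. The means were 18.5 ± 0.344 and 12.9 ± 2.25 CPM (SD, n = 3), with a log2 fold change of -0.52 (SE 0.190) that missed the threshold in edgeR (adjusted p = 0.0817) and in DESeq2 (adjusted p = 0.0504). It passed in edgeR with library totals alone (-0.83, adjusted p = 0.0428).

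*Axl* (ENSMUSG00000002602, chr7:25757273-25788705, minus strand), a receptor tyrosine kinase of the TAM family, was 137, 157 and 138 CPM in YT-FF and 149, 96.3 and 143 CPM in YT-AKO. YT-AKO 2 was low, and the other YT-AKO libraries lay within the YT-FF range. The log2 fold change was -0.15 (SE 0.200, edgeR adjusted p = 0.585), and 0.02 without YT-AKO 2. Its ligands were not called either: *Gas6* had a log2 fold change of 0.26 (adjusted p = 0.215) and *Pros1* of 0.11 (adjusted p = 0.673, both edgeR).

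An exact permutation test on each gene's log2 CPM (two-sided) cannot go below p = 0.1 with 3 against 3 libraries. It gave that smallest value for *Amotl1*, *Amotl2*, *Crim1* and *Nuak2*. The exact permutation p was 0.3 for *Ajuba*, 0.4 for *Ankrd1* and 0.6 for *Ccn1*, *Ccn2* and *Axl*.

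Gene length moved with the fold changes across the whole table. Across the 16807 tested genes, which are no replicates, longer genes (summed exons) had lower fold changes, with a Spearman correlation of -0.376. The median log2 fold change was -0.47 in genes of 8001 bp or more, of which 80.3% were below 0, -0.27 between 6001 and 8000 bp, -0.12 between 4001 and 6000 bp and 0.08 between 3001 and 4000 bp. *Amotl1*, at 10064 bp, was longer than 91.9% of the tested genes, *Amotl2* (6289 bp) than 75.1% and *Crim1* (5995 bp) than 72.8%. The 3 called targets were thus the 3 longest of the 9, and *Ccn1*, *Ccn2* and *Ankrd1* (2019, 2861 and 2886 bp) were the shortest.

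With an offset for length in each library, *Amotl2* stayed lower (log2 fold change -1.47, edgeR adjusted p = 0.0265), where 4.54% of tested genes were called lower. *Amotl1* moved to -0.13 (adjusted p = 0.609) and *Crim1* to -0.53 (adjusted p = 0.0643), and neither was called (edgeR). *Nuak2* (3920 bp) was -0.49 and *Ajuba* (3646 bp) -0.52 with the offset, about the values without it. The median of the 8 targets was -0.50 with the offset. With the offset and without YT-AKO 2, a combination added after the data were seen, *Amotl2* was -1.29 and *Crim1* -0.41, both called (edgeR adjusted p = 0.0153 and 0.0484), and *Amotl1* was -0.29 (adjusted p = 0.149).

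**Figure D3:**
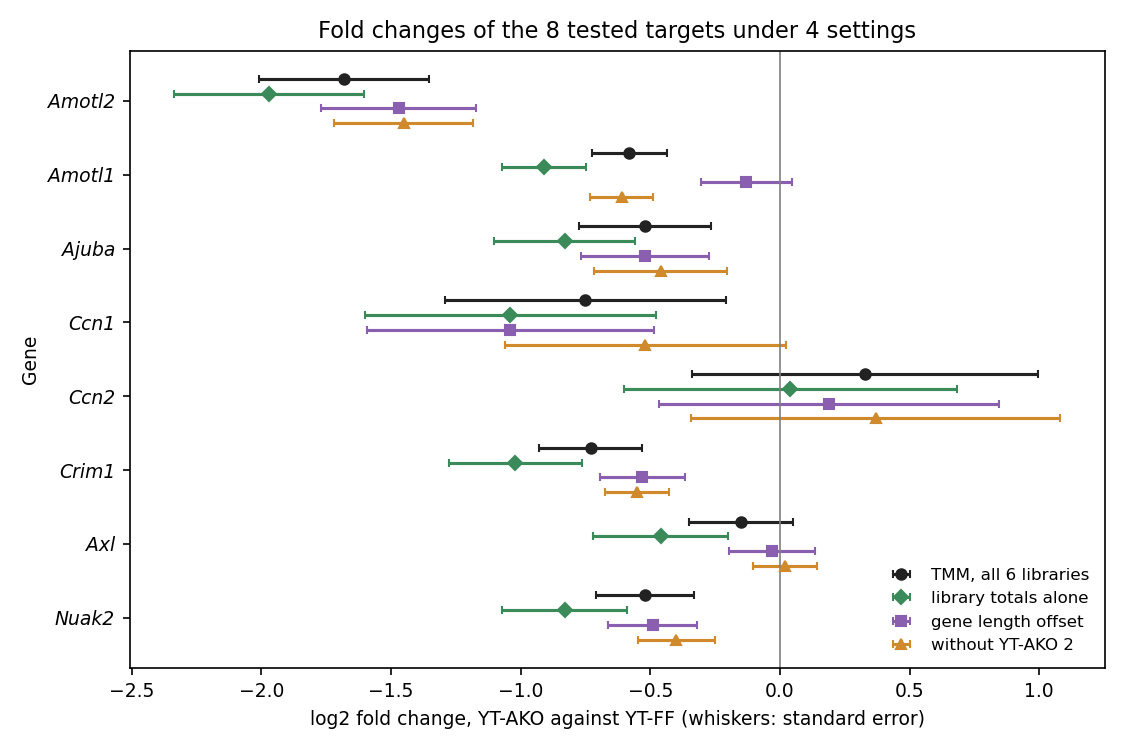
Log2 fold change of YT-AKO against YT-FF (x axis) of the 8 tested targets (y axis) under 4 settings, with whiskers for the standard error. *Amotl2* lies between -1.97 and -1.45 in all 4, *Amotl1* moves from -0.58 to -0.13 with the gene length offset, and *Axl* lies between -0.46 and 0.02.

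Levels between genes were compared per length, in TPM, the share of a gene in a library's counts per length, from the counts and summed exon lengths. In YT-FF, *Amotl2* (153 ± 42.5 TPM, SD, n = 3) and *Axl* (109 ± 12.7 TPM) were the highest, at the 94.0th and 91.1th percentiles of the tested genes, and their ranges over libraries overlapped. *Amotl1* (57.7 ± 1.72 TPM), *Ccn1* (53.6 ± 33.5 TPM) and *Crim1* (35.1 ± 1.56 TPM) came next, where *Ccn1* overlapped both its neighbours. *Nuak2* (18.0 ± 0.947 TPM), *Ccn2* (15.5 ± 14.3 TPM) and *Ajuba* (14.2 ± 2.20 TPM) followed near the middle of the tested genes and overlapped one another in that order. *Ankrd1* was last, at 0.455 ± 0.561 TPM. The ranges did not overlap between *Axl* and *Amotl1*, between *Crim1* and *Nuak2* or between *Ajuba* and *Ankrd1*.

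In YT-AKO the order opened with *Axl* (64.4 ± 26.9 TPM), followed by *Amotl2* (31.9 ± 16.3 TPM) and *Amotl1* (24.4 ± 5.33 TPM). *Axl* and *Amotl2*, first and second in both groups, exchanged places, and *Ccn2* and *Nuak2* did too. Neighbours overlapped throughout except for *Ajuba* (6.37 ± 2.52 TPM) and *Ankrd1* (0.0187 ± 0.0324 TPM). The TPM means of all 9 genes were lower in YT-AKO, but TPM carry no TMM factor and move with the lengths of the other genes in a library, so groups were compared in CPM.

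**Figure D4:**
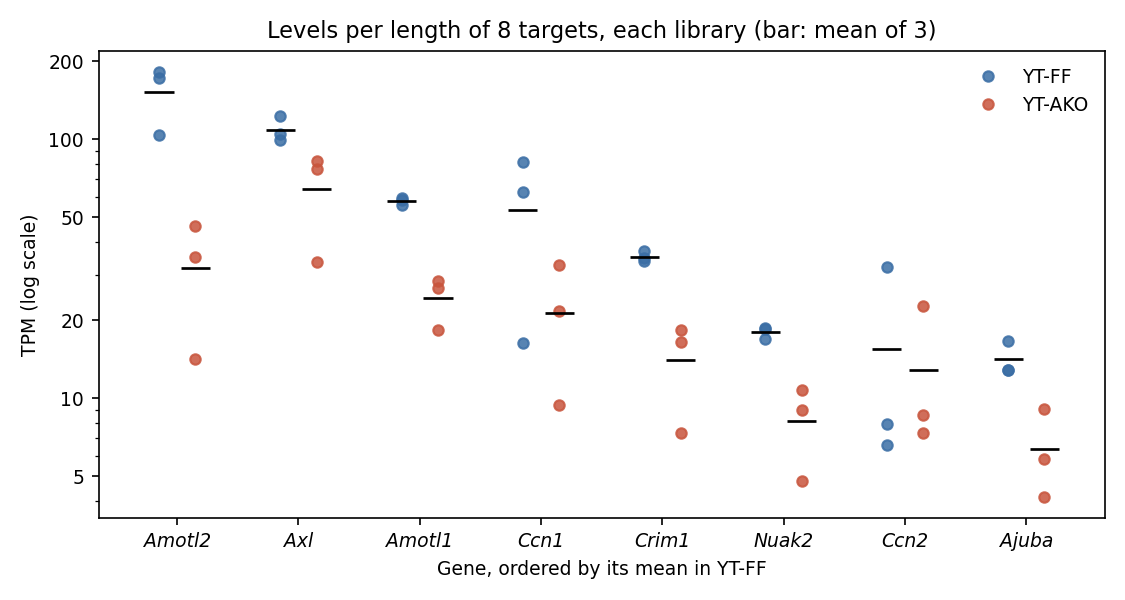
TPM on a log scale (y axis) of 8 targets in each YT-FF (blue) and YT-AKO (red) library, ordered by the YT-FF mean, which the lines mark with the YT-AKO mean. In YT-FF the means run from 153 TPM for *Amotl2* to 14.2 TPM for *Ajuba*, and *Ankrd1*, at 0 in 3 libraries, is left off the log axis.

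Further genes of the pathway were counted in the same fit. Of 15 other genes of a widely used YAP/TAZ target signature, 14 were tested (*Foxf2* was not), 3 were lower, none was higher and 11 were not called. Of all tested genes 9.01% were called lower and 12.6% higher. At an unadjusted p under 0.05, *Gadd45a* was higher and *Lats2* and *F3* were lower as well (18.6% of all tested genes lower, 22.2% higher, edgeR). Of the 14, 11 had a log2 fold change below 0, against 51.0% of all tested genes, and the list's median was -0.37. It was -0.21 without YT-AKO 2. The 3 lower genes were *Ptpn14*, a phosphatase that binds YAP (-0.97, adjusted p = 0.0203), *Rbms3*, an RNA-binding protein (-0.74, adjusted p = 0.0289), and *Asap1*, a GTPase-activating protein for ARF (-0.77, adjusted p = 0.0295, all edgeR). *Ptpn14* was 85.4, 77.8 and 85.3 CPM in YT-FF and 37.4, 36.9 and 52.9 CPM in YT-AKO. All 3 are long genes, at 13413, 11096 and 7482 bp, and none was called with the length offset (-0.43, -0.27 and -0.47). With that offset *F3*, the receptor of coagulation factor VII, was called lower instead (-1.06, edgeR adjusted p = 0.0434), and the median of the list was -0.09 (0.09 with the offset and without YT-AKO 2). *Gadd45a*, a growth arrest gene, had a log2 fold change of 1.34 (adjusted p = 0.0623) and, without YT-AKO 2, of 0.67 (adjusted p = 0.0783, both edgeR). *Fjx1* had a log2 fold change of 1.37 (adjusted p = 0.160) and *Ccdc80* of 0.03 (adjusted p = 0.932, all edgeR). *Fjx1* rested on YT-AKO 1, at 8.08 CPM, while YT-AKO 2 and 3, at 1.59 and 1.71 CPM, lay within the YT-FF range of 1.19 to 1.91 CPM.

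Of a further 12 genes described as YAP/TAZ targets, 11 were tested (*Areg* was not), and edgeR called 0 of them in either direction (1, *Tgm2*, at an unadjusted p under 0.05). A log2 fold change below 0 was found in 3 of 11, against 51.0% of all tested genes, and the list's median was 0.48. Above 0, the smallest p-values belonged to *Tgm2*, a transglutaminase of the matrix (0.54, adjusted p = 0.0572), *Tagln*, a smooth muscle actin-binding protein (0.94, adjusted p = 0.147), and *Birc5*, an inhibitor of apoptosis (0.89, adjusted p = 0.180, all edgeR). *Birc5* rested on YT-AKO 2, at 20.5 CPM against 8.55 and 6.15 CPM in YT-AKO 1 and 3, and was 0.21 without it (adjusted p = 0.593, edgeR). Below 0 were *Dlc1* (-0.49, adjusted p = 0.145), *Vgll3* (-0.05, adjusted p = 0.917) and *Myc* (-0.03, adjusted p = 0.928, all edgeR). With the length offset *Dlc1* was 0.07 (adjusted p = 0.852, edgeR). *Tgm2* was the one gene of the list that was called higher with DESeq2 (adjusted p = 0.0165), with the length offset (0.64, adjusted p = 0.0374) or without YT-AKO 2 (0.62, adjusted p = 0.0122, both edgeR).

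The paralogues of the 9 targets were counted to see whether families moved together. Of 12 paralogues, 10 were tested (*Ccn6* and *Ankrd2* were not), 1 was higher, none was lower (also at an unadjusted p under 0.05 and with DESeq2) and the median was -0.21. Of all tested genes 12.6% were called higher and 9.01% lower. The higher one was *Ccn5*, a CCN protein that lacks the C-terminal domain of its relatives, at 3.28, 4.39 and 7.41 CPM in YT-FF and 10.9, 21.9 and 10.4 CPM in YT-AKO. Every YT-AKO library was above the YT-FF range, and YT-AKO 2 was the highest. The log2 fold change was 1.52 (SE 0.408, edgeR adjusted p = 0.0380), 1.08 without YT-AKO 2 (edgeR adjusted p = 0.0365) and 1.18 with the length offset, where it was not called (edgeR adjusted p = 0.0641). Within the CCN family, *Ccn3* (-0.57, adjusted p = 0.200) and *Ccn4* (-0.69, adjusted p = 0.264, both edgeR) were not called. *Amot*, the third angiomotin, was at low levels, 3.47 to 6.86 CPM over the 6 libraries, with a log2 fold change of 0.25 (adjusted p = 0.543, edgeR). *Ankrd23*, a relative of *Ankrd1* (-1.04, adjusted p = 0.201), and *Wtip*, a relative of *Ajuba* (0.30, adjusted p = 0.354, both edgeR), were not called. Without YT-AKO 2, *Wtip* was called higher (0.50, edgeR adjusted p = 0.0398). Differences between paralogues, such as that of *Amotl2* and *Amotl1*, were not tested.

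**Figure D5:**
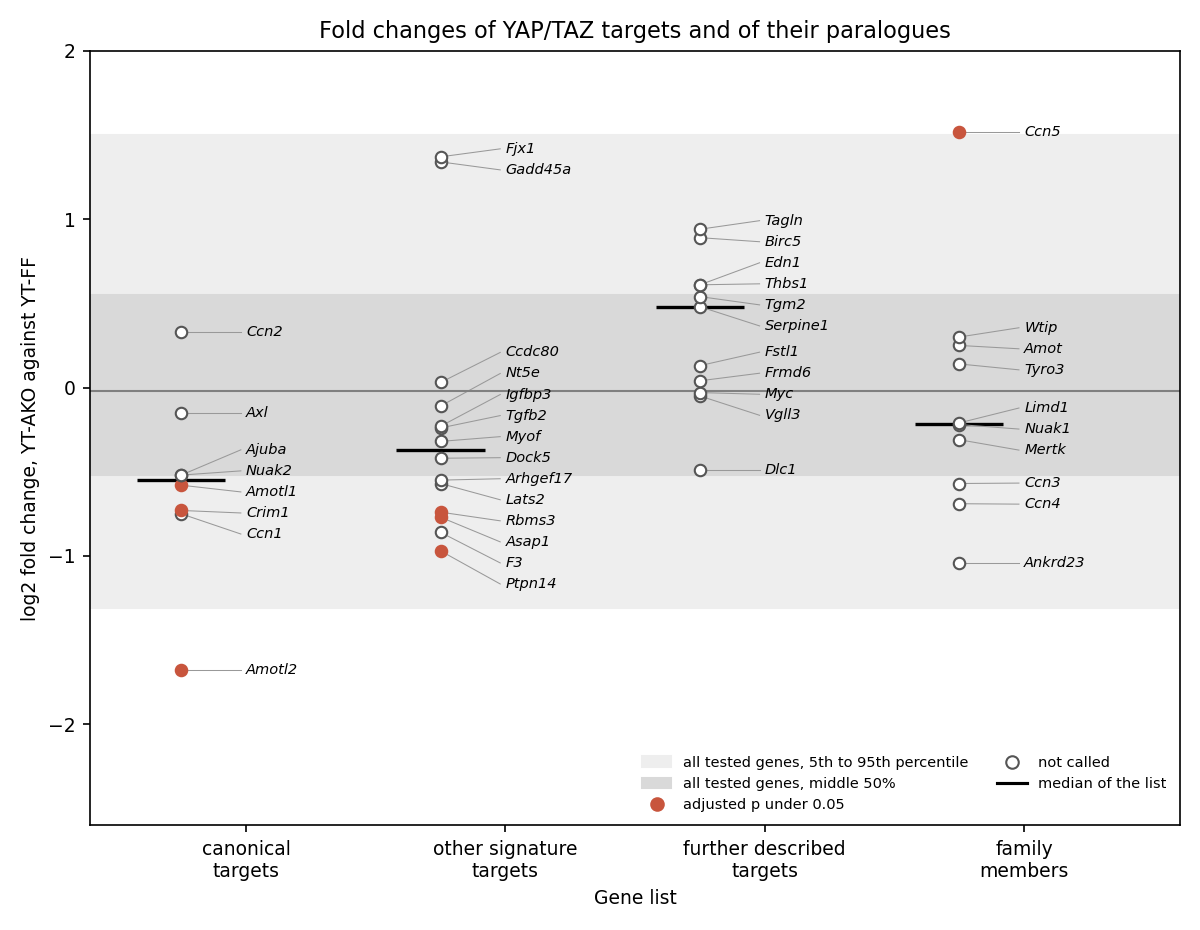
Log2 fold change of YT-AKO against YT-FF (y axis) for the tested genes of 4 lists (x axis), filled where the edgeR adjusted p is under 0.05, with the list's median as a bar and the spread of all tested genes as gray bands. The medians are -0.55, -0.37, 0.48 and -0.21, against -0.02 for all tested genes, and *Amotl2* alone of the genes drawn lies below the 5th percentile of -1.31.

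Markers of the cells in the tissue were counted in the same libraries, and their part in the differences of the targets was not tested. The shares called over all tested genes were 9.01% lower and 12.6% higher. The 8 adipocyte markers summed to 12600 to 18300 CPM in YT-FF and 21400 to 35300 CPM in YT-AKO (3 higher, 5 not called), so the defining markers of the labelled tissue were present. The highest sum was in YT-AKO 2, and most of it was *Fabp4*, at 20200 CPM against 9160 and 10200 CPM in YT-AKO 1 and 3. For endothelial markers the sum was 674 to 730 and 626 to 953 CPM (*Kdr* lower, 1 of 7 called), and their median log2 fold change was 0.13. *Cldn5* (1.57) and *Vwf* (0.46) were not called but were higher at an unadjusted p under 0.05 (edgeR), as were 22.2% of all tested genes. The highest sum rested on *Cldn5* in YT-AKO 2, at 454 CPM against 103 and 111 CPM in YT-AKO 1 and 3. For mural cell markers it was 501 to 559 and 445 to 509 CPM (0 of 6 called by edgeR, and 0 at an unadjusted p under 0.05). Progenitor and fibroblast markers summed to 3900 to 4900 and 4430 to 7280 CPM (2 of 8 higher, 1 lower). Schwann cell markers summed to 252 to 312 and 203 to 297 CPM (0 of 5 called by edgeR, and 0 at an unadjusted p under 0.05). Macrophage markers summed to 450 to 494 and 684 to 830 CPM (1 of 6 higher). The higher one was *C1qa*, at 102, 87.8 and 102 CPM in YT-FF and 243, 479 and 242 CPM in YT-AKO. The other 5 macrophage markers were not called, and their groups overlapped. B and T cell markers were at 840 to 973 and 571 to 1070 CPM (2 of 7 lower). Skeletal muscle markers were at 112 to 406 and 208 to 2950 CPM (1 of 6 higher), and YT-AKO 1 alone was above 438 CPM. Epithelial markers were at 2.13 to 3.49 CPM, with *Krt5* at 0 in every library.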

How the data were processed

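The scWAT libraries of 3 YT-FF and 3 YT-AKO mice were compared. Per the file headers, the deposited counts are fragments per gene made with featureCounts 2.0.1 on the exons of GENCODE release M25 (mm10). The authors mapped paired-end reads with HISAT2, counted without strand, dropped multi-mapping fragments and those shared by overlapping genes, and applied no normalization. The gene lengths in these files are summed exons. Of 55401 gene identifiers, 55141 were matched to a symbol.

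Counts were tested in R 4.3.3 with edgeR 4.0.16 (TMM, filterByExpr with a minimum count of 10 and a minimum total of 15, quasi-likelihood test, Benjamini-Hochberg over 16807 genes). The biological coefficient of variation was 0.288. Alternatives were DESeq2 1.42.0, limma-voom (limma 3.58.1), other normalizations and filters, the replicate number as a block, robust estimation, a length offset (a spline with 6 degrees of freedom per library) and each library left out. The tests were also run on simulated counts with larger changes than those of the targets and no trend with gene length. That run does not show how the tests perform on these data. Genes with near-identical copies lose counts, and 0 to 1.70% of the 50-base words of a target occurred in other genes' transcripts. These transcripts were of an earlier GENCODE release than that of the counts and were searched on their own strand only.

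The 9 targets and all lists were chosen with earlier results of these data known. Named are the 9 targets, *Yap1* and *Wwtr1*, up to 3 genes with the smallest p in each direction of the other pathway lists, and the 3 nearest patterns of *Ccn1* and *Ccn2*. From the immediate early and marker lists fewer genes are named than this rule allows. *F3*, *Lats2*, *Gm15270*, *Tead2* and *Krt5* were named after their values were seen. Promoters came from RefSeq, and 50 bases after the start were not searched.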

Additional observations from a re-analysis of the deposited data

How the results depend on the processing

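The count of lower targets (3) was 2 to 4 with other tools, filters and normalizations and 1 (*Amotl2*) with the length offset, and 0 to 3 with each library left out: 0 without YT-FF 1, 2 or 3 and 1 without YT-AKO 3. With the replicate block it was 0, and 0 with block and length offset together. With the block *Amotl2* was -1.70 (edgeR adjusted p = 0.0584), *Crim1* -0.75 (adjusted p = 0.0736) and *Amotl1* -0.58 (adjusted p = 0.0929). The labels do not say whether libraries of the same number belong together. Same-numbered libraries deviated with r of 0.14, -0.13 and -0.09, and differently numbered ones with r from -0.16 to 0.17. With 3 libraries a group these values cannot decide whether the libraries were paired. No target was higher under any of these alternatives.

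Over all genes, 1515 were lower with edgeR, 2392 with DESeq2, 2828 with library totals, 763 with the length offset, 9 with the replicate block and 22 with block and offset, and 0 to 2424 with a library left out. Higher were 2121 with edgeR, 1137 with library totals, 24 with the replicate block and 59 with block and offset, and 0 to 2925 with a library left out. The YT-FF libraries moved these counts most: without YT-FF 1 edgeR called 0 genes at the adjusted threshold and 4665 at an unadjusted p under 0.05, and without YT-FF 2 it called 2 lower and 0 higher, without YT-FF 3 528 lower and 704 higher, and without YT-AKO 3 895 lower.

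For the other signature targets (3 lower, 0 higher), 0 were lower with the replicate block, 1 with the length offset, 0 with both and 0 to 3 with a library left out. *Gadd45a* was the 1 higher with DESeq2, without the filter on low counts and without YT-AKO 1, so leaving out a library gave 0 to 1. For the further described targets, *Dlc1* was the 1 lower with library totals. *Tgm2* was the 1 higher with DESeq2, with the length offset, without YT-AKO 2 (0 to 1 over the libraries left out) and with offset and without YT-AKO 2. For the paralogues (1 higher), 0 were higher with the replicate block, with the length offset, with both or with offset and without YT-AKO 2, and 0 to 2 with a library left out. The 2 were *Ccn5* and *Wtip*, without YT-AKO 2.

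*Ccn2* changed sign without YT-FF 1 (-0.01), YT-FF 2 (-0.06) or YT-AKO 1 (-0.12) and ran from there to 1.49 with a library left out, and *Axl* without YT-AKO 2 (0.02, and 0.10 with the length offset; -0.26 to 0.02 with a library left out). *Amotl1* was also lost without the filter on low counts (-0.59, edgeR adjusted p = 0.0510). The ratio of *Amotl2* to *Ccn2* in YT-FF TPM was 9.84, and 7.15 to 19.0 with a library left out, the highest without YT-FF 3. Counting depth limited *Ankrd1* alone, and with 3 libraries a group smaller differences of variable genes such as *Ccn1* and *Ccn2* could not be resolved. The cause of these changes was not tested.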
